A study of Saccharomyces cerevisiae and Saccharomyces paradoxus with 173 samples.

Results

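The samples described here are the 18 samples of YPS2079, a natural strain labelled Saccharomyces cerevisiae, in a series of 10 strains that also holds 137 samples of the other 8 S. cerevisiae strains and 18 of YPS3395, labelled S. paradoxus. They are the columns of the deposited table named for that strain, at 0, 24, 48, 63, 87, 111, 135, 152, 176, 194, 218, 227, 251, 260, 284, 301, 325 and 345 min after release from a pheromone block. They were set against YPS183, YPS2055, YPS2060, YPS2066, YPS2067, YPS2073, YPS3060 and YPS3137. YPS3395 shared the error estimate and entered no comparison.

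Per the labels, every strain was grown in SD, a minimal glucose medium, and held for about 75 min with 4 µM alpha factor, the mating pheromone that stops a cells in late G1. The washed cells were put into fresh SD at 18 °C and split into 18 flasks, so each time is a flask of 1 culture, with no second culture of any strain in the samples used here. Each sample was hybridised to 2-colour spotted oligonucleotide arrays against 1 common RNA, from unsynchronised YPS183 cells in the rich medium YPD at 30 °C. Shifts in the timing of gene expression among wild strains are the subject given in the title.

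In yeast, waves of transcription follow the division cycle: G1 cyclin activity turns on DNA synthesis and budding genes, histone genes follow in S phase, mitotic cyclins in G2/M, and genes of daughter cell separation at the end of mitosis. Cells released from alpha factor shut off mating genes and enter this programme together. Genes near chromosome ends, many of them members of repeated families, are known to differ between natural strains in copy number and sequence.

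The values are ratios of sample to common RNA on a log scale whose base is not stated and is taken as 2, so sizes hold only for that base. Positive values likely mean more RNA in the sample than in the common RNA, and scale and centring are otherwise unknown. YPS2079 rested on 42 arrays, 2 each in 14 samples, 3 in 3 samples and 5 at 0 min, and array number limits the precision. Sample medians over 6172 genes ran from -0.018 to 0.025, and single values ran from -7.37 to 4.65.

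Alternate times of YPS2079 came from separate ranges of array numbers. The 9 samples at 0, 48, 87, 135, 176, 218, 251, 284 and 325 min, called set A, took 18 of their 21 arrays from 1 range. The other 9 samples, set B, took 18 of their 21 from a second range. With smooth curves fitted in limma, 398 genes differed between the sets in YPS2079 (adjusted p, 6.45% of all genes). Of the 43 stress and storage carbohydrate genes 15 differed, each higher in set A, and of the 33 pheromone response genes 13 differed, 11 of them higher in set B. AGA1, which encodes the anchor of a cell adhesion protein used in mating, shows the alternation: from 48 min on it lay between -2.29 and -1.18 in set A, and between -0.88 and -0.35 in set B. Array range and sampling time cannot be told apart as sources of this alternation. Set values or directions are therefore given beside most of the genes described below that differed between the sets.

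The first question was which genes varied over the YPS2079 time course. Each gene was fitted with a curve of 7 spline terms per strain in 1 limma model over all samples. A gene was called where the Benjamini-Hochberg adjusted p was under 0.05 and the fitted curve spanned at least 1. In YPS2079 32 genes passed, 0.518% of 6172. Without the 24 min sample 12 passed, and with an offset for the sets 96 did (1.56%). Of the 32, 8 belonged to the list of seripauperins and cold mannoproteins, which are cell wall proteins, 2 to the stress list (GRE1 and HSP31), 1 to the zinc list (ZRT2) and 1 to the hexose list (HXT13). The error is the scatter of time points around curves, so the p-values do not cover the spread between cultures. Ranges below are set against the mean curve of the other strains, which averaging can flatten. Of all 6172 genes 5390 had a larger range in YPS2079 than in that mean. As these are bulk samples, fewer cells expressing a gene and less RNA per cell cannot be told apart.

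NCE102, which encodes a protein of the eisosome domains of the plasma membrane, had the widest curve of the 32. Its ratio was lowest at 63 min (-2.16), had a median of 1.23 and was highest at 218 min (2.54). The 0, 24 and 63 min samples were the lowest, and all 12 samples from 135 to 345 min lay at 0.64 or above. The fitted range was 3.33 in YPS2079 (limma adjusted p = 0.0116) and 2.31 in the mean of the other strains. NCE102 differed between the sets, with a median of 1.85 in set A and 0.92 in set B, and lost its call without the sample at 0, 24 or 63 min.

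HSP31, which encodes a chaperone and methylglyoxalase of the DJ-1 family, had a lowest ratio of -0.56 at 48 min, a median of 0.78 and a highest of 1.99 at 284 min. It lay at or below 0.10 in the 4 samples up to 63 min and at 0.48 or above from 135 min on. Its range was 2.14 in YPS2079 (limma adjusted p = 0.00124) and 1.19 in the mean of the other strains, and it kept its call when any 1 of the 18 samples was left out. It differed between the sets, with a median of 1.37 in set A and 0.70 in set B.

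Among mitochondrial genes, MDH1 (malate dehydrogenase of the matrix), DIC1 (a dicarboxylate carrier) and MAM33 (a matrix protein) varied with time. MDH1 was lowest at 63 min (-0.71), had a median of 0.92 and was highest at 284 min (1.79), with a range of 2.05 against 0.96 in the mean of the other strains (limma adjusted p = 0.0207). All 4 of its samples up to 63 min were negative and all later ones positive. MDH1 differed between the sets, with a median of 1.19 in set A and 0.56 in set B. DIC1 had a range of 1.85 in YPS2079 and 1.27 in the other strains, and MAM33 1.84 in YPS2079 and 1.26 in the other strains. Both were lowest in the samples at 0 and 24 min and stayed at 1.47 or above from 111 min on. The calls of MDH1 and MAM33 were lost without 6 and 3 of the 18 samples, those of the early times among them. DIC1 lost its call without the sample at 0 or 24 min. ZRT2, the low-affinity zinc transporter, was lowest at 87 min (-0.55), had a median of 0.42 and was highest at 325 min (1.24), and lost its call without the sample at 87 or 111 min. It differed between the sets, with a median of 0.85 in set A and 0.17 in set B.

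The seripauperins and cold mannoproteins, small cell wall proteins of the PAU, TIR and related families that are known from anaerobic and cold cultures, held 8 of the 32 calls. They were PAU1, PAU2, PAU4, PAU7, PAU11, PAU17, PAU20 and TIR3, of 29 measured members, and 16 members had an unadjusted p under 0.05, beside 6.29% of all genes. The median fitted range was 1.08 over the list and 0.44 over all genes. The highest YPS2079 sample was the one at 0 min for 19 members, 65.5% of the list against 7.39% of all genes. The PAU genes are near-identical copies that can share probes, so they are not separate measurements.

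PAU2 was highest at 0 min (1.15), had a median of -0.24 and was lowest at 284 min (-0.82). The sample at 24 min (0.71) was the second highest, no later sample passed 0.15, and the median was -0.46 in set A and -0.10 in set B. Its range was 1.75 in YPS2079 and 0.43 in the mean of the other strains, where the ratio at 0 min was 0.00 (limma adjusted p = 7.87e-05). PAU20 was likewise highest at 0 min (1.34), with a median of -0.29 and a lowest value of -0.77, and its median was -0.57 in set A and 0.03 in set B. All 7 of these PAU genes lost the call without the 0 min sample, which rests on 5 arrays. The list mean at 0 min was 0.57 in YPS2079 and 0.08 in the other strains. The fitted list mean also peaked at 0 min in YPS2055, YPS2060, YPS2066, YPS3060 and YPS3137. Its range was 0.92 in YPS2079, 1.39 in YPS2066 and between 0.12 and 0.56 in the remaining strains. Of the 12 members that differed between the sets 11 were higher in set B, PAU1, PAU4, PAU7 and PAU17 among them.

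TIR3 ran the other way. It was lowest at 24 min (-0.13), had a median of 1.43 and was highest at 227 min (1.93). The 4 samples up to 63 min lay at 0.37 or below and all later ones at 0.85 or above. Its range was 1.83 in YPS2079 and 0.76 in the mean of the other strains (limma adjusted p = 7.87e-05), and the call held without any 1 sample.

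PRM7, which encodes a pheromone-regulated membrane protein, was highest at 0 min (1.41) and 24 min (1.26), had a median of -0.10 and was lowest at 284 min (-0.51). Its range was 1.91 in YPS2079 and 0.87 in the mean of the other strains (limma adjusted p = 0.0207), and its call was lost without the sample at 0 or 24 min. YDL038C, a frame with the next systematic number, had a range of 1.72 and lost its call without the 24 min sample. YGL102C, YCR041W, YMR153CA, GRE1, YEL067C and YLR358C had ranges of 1.57 to 2.40 that rested on few samples. The range of YGL102C was 2.40, and 0.53 without the 345 min sample, and that of YEL067C was 1.59, and 0.39 without the same sample. The range of GRE1 was 1.60, and 0.93 without the 301 min sample. Without 1 sample the ranges of YCR041W, YMR153CA and YLR358C were as small as 1.05 (without 301 min), 1.08 (without 87 min) and 1.06 (without 251 min), and each lost its call. YCR041W differed between the sets, with a median of 0.03 in set A and -0.27 in set B. NRE1, MSN4 and AIM9, named after their values were seen, had ranges of 1.43 to 1.49. They kept their calls in 8, 14 and 15 of the 18 fits that left out 1 sample. AIM9 differed between the sets, with a median of 0.63 in set A and 0.12 in set B.

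**Figure D1:**
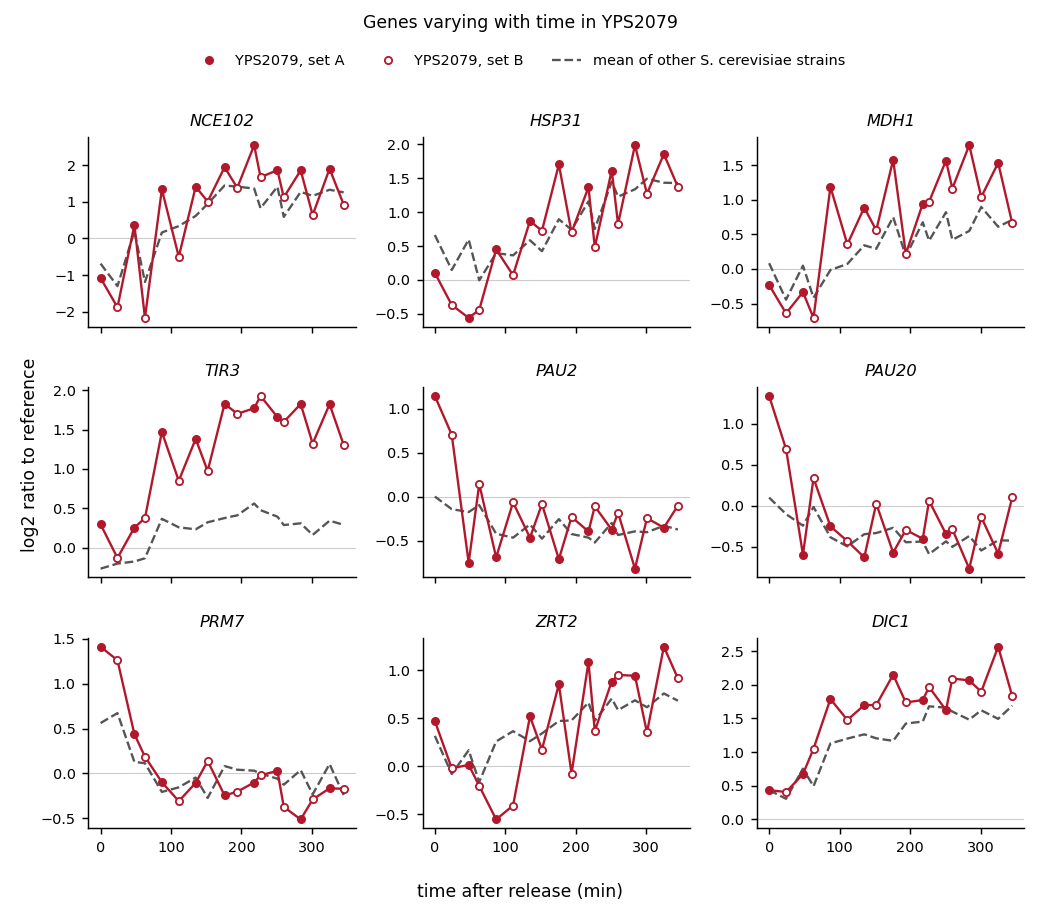
Log2 ratio to the common RNA against minutes after release for 9 genes that varied with time in YPS2079. Red points are YPS2079 samples, filled for set A and open for set B, and the dashed line is the mean of the remaining S. cerevisiae strains with a sample at that time (6 to 8 strains). NCE102 reaches 2.54 at 218 min, TIR3 lies between 1.31 and 1.93 from 176 min on while the other strains' mean reaches at most 0.56, and PAU2 and PAU20 start at 1.15 and 1.34.

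None of 20 phosphate genes passed the limma test over time, and 3 had an unadjusted p under 0.05 (15.0% of the list, beside 6.29% of all genes). The highest YPS2079 sample was at 0 min for 14 of the 20 members, 70.0% of the list against 7.39% of all genes. The list mean at 0 min was -0.03 in YPS2079 and -0.46 in the other strains. PHO84, the high-affinity phosphate transporter, was 0.96 at 0 min, -1.95 at 24 min and between -4.00 and -2.16 after that, against -1.74 at 0 min in the other strains (range 4.43, limma adjusted p = 0.0798). VTC3, a subunit of the vacuolar polyphosphate polymerase, was 0.43 at 0 min in YPS2079 and -0.85 in the other strains (limma adjusted p = 0.052). With the set offset 4 phosphate genes passed, and with arrays printed in 2007 alone 7 did, beside 96 and 146 of all genes. The limma adjusted p of PHO84 was 0.0304 and 0.00186 in these fits, and that of VTC3 0.00153 and 4.25e-06. The fitted list mean had a range of 1.01 in YPS2079 and 0.44 in the mean of the other strains. Single other strains had ranges of 0.40 to 0.98, and YPS2055 and YPS2060 also peaked at 0 min.

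Of 19 hexose uptake and phosphorylation genes, HXT13 passed the limma test over time, with a range of 1.09. It was 1.14 at 301 min and at most 0.39 in every other sample, its range was 0.68 without the 301 min sample, and it lost its call in 8 of the 18 fits that left out 1 sample. The list mean had a range of 0.97 in YPS2079, 0.39 in the mean of the other strains and 0.31 to 0.79 in single other strains. Of 22 amino acid permease genes none passed (1 with the set offset and 0 with 2007 arrays alone). An unadjusted p under 0.05 was found for 1 of these permease genes (4.5%, beside 6.29% of all genes). Their mean had a range of 0.69 in YPS2079, 0.23 in the mean of the other strains and 0.19 to 0.80 in single other strains. MUP1, the methionine permease, was 2.21 at 0 min, 1.06 at 63 min, its next highest sample, and had a median of -0.94. It did not pass (limma adjusted p = 0.418, 0.0175 with the set offset and 0.0694 with 2007 arrays alone). Of 73 ribosome biogenesis genes none passed and 16 had an unadjusted p under 0.05. Their mean curve peaked at 48 min in both YPS2079 and the other strains.

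**Figure D2:**
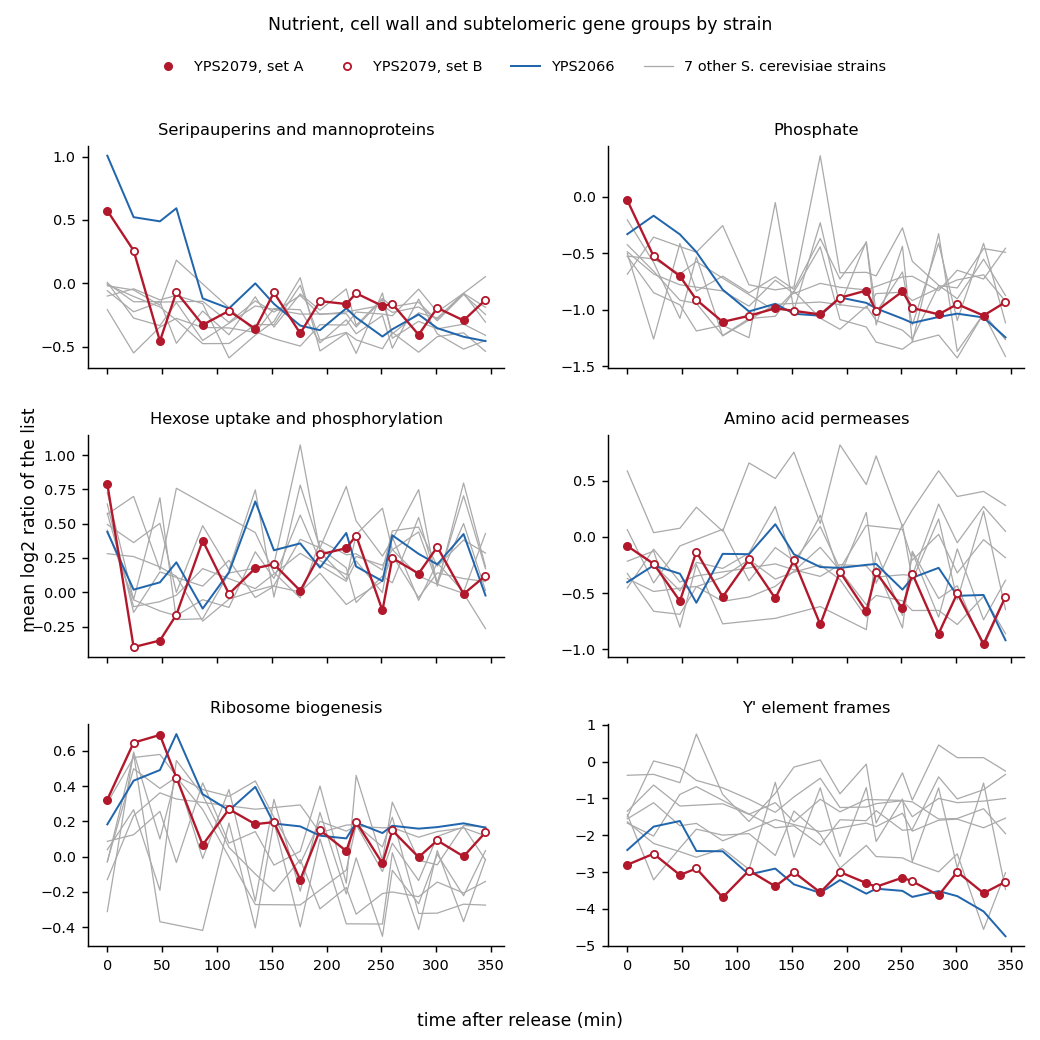
Mean log2 ratio of 6 gene lists against minutes after release, YPS2079 in red, YPS2066 in blue and the other 7 S. cerevisiae strains in grey. The seripauperin mean of YPS2079 is 0.57 at 0 min, and the mean of the frames of the Y' subtelomeric repeat stays between -3.69 and -2.51.

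None of the 31 replication and repair genes, 10 histone genes, 26 G2/M genes and 21 M/G1 genes varied by the limma rule, and 2, 7, 7 and 1 of them had an unadjusted p under 0.05. The fitted list mean of replication and repair genes peaked at 87 min in YPS2079 and at 63 min in the mean of the other strains, whose own peaks ran from 48 to 301 min. The histone mean peaked at 135 min in YPS2079 and 111 min in the mean of the others, and the G2/M mean at 218 min in YPS2079 and 194 min in the others. The M/G1 mean peaked at 301 min in YPS2079 and 227 min in the others. These 4 YPS2079 peaks lay inside the range of the single strains' peaks, and the timing difference had no test. The highest single YPS2079 samples of the replication and histone means were at 63 and 111 min, the times of the others' fitted peaks. The early cell cycle box list peaked at 63 min in YPS2079 and 218 min in the others, and the budding and cell wall list at 284 min in YPS2079 and 87 min in the others. Both YPS2079 peaks moved widely with each sample left out, over 0 to 218 and 111 to 345 min. Single other strains peaked from 0 to 345 and from 48 to 325 min. The budding list mean had a range of 0.28 in YPS2079, and its highest single sample was at 63 min. With each sample left out in turn, the YPS2079 peaks of the replication, histone, G2/M and M/G1 means lay at 63 to 87, 111 to 152, 194 to 251 and 284 to 301 min.

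RNR1, the large subunit of ribonucleotide reductase, was lowest at 0 min (-2.16), had a median of -0.13 and was highest at 63 min (0.86). Its fitted range was 2.48 and its peak 63 min in both YPS2079 and the mean of the other strains (limma adjusted p = 0.777 for YPS2079). HTA1, a histone H2A gene, was lowest at 24 min (-0.83) and highest at 111 min (1.94), with a second stretch at 0.93 or above from 284 min. CLB2, the main mitotic cyclin, was lowest at 24 min (-1.27), had a median of 0.81 and was highest at 218 min (1.52). Up to 135 min its set B samples were negative while its set A samples after 0 min were positive.

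**Figure D3:**
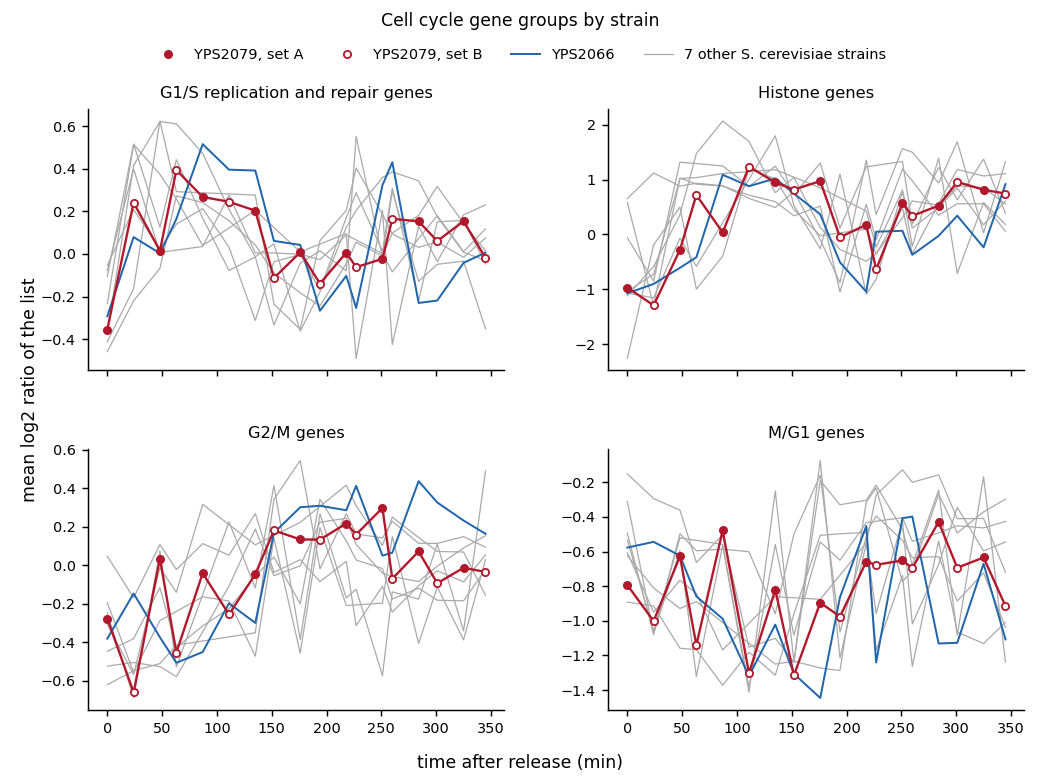
Mean log2 ratio of the replication and repair, histone, G2/M and M/G1 gene lists against minutes after release, YPS2079 in red, YPS2066 in blue and the other 7 S. cerevisiae strains in grey. The histone mean of YPS2079 is highest at 111 min (1.24) and lowest at 24 min (-1.29).

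The second question was how the level of YPS2079 differed from the mean of the other 8 strains over the 12 times at which all had a sample. A gene was called where the fitted curves differed with an adjusted p under 0.05 and by at least 1. By this rule 6 genes were higher in YPS2079 (0.0972% of all genes) and 36 were lower (0.583%). Within set A, with 8 of the 12 times, 23 were higher and 63 lower. Within set B, with 4 times and so less data, 5 were higher and 17 lower. The print years given for YPS2079 were all 2007, while YPS183, YPS2073, YPS3060 and YPS3137 also had samples on earlier prints. On 2007 prints alone, with 7 strains in the fit, 9 were higher and 52 lower. That fit kept 6 of the higher and 30 of the lower calls. With quantile scaling 25 were lower, 21 of them among the 36. At any size 318 were higher (5.15%) and 413 lower (6.69%). The difference is between fitted curves and can depart somewhat from the difference of sample means. Set against the spread between the 8 strains, 1 gene, LSM7, passed in limma (0.0162%), and 128 had an unadjusted p under 0.05 (2.07%).

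Vitamin B6 synthesis genes went both ways. SNZ2 and SNZ3 encode near-identical pyridoxal phosphate synthase subunits whose probes may share signal. SNZ3 was 1.50 at the lowest of the 12 times, 2.07 at the median and 2.57 at the highest in YPS2079. It averaged 2.10 ± 0.32 in YPS2079 (SD over 12 times) and 0.41 ± 0.70 in the other strains (SD over 8 strain means), a difference of 1.67 (SE 0.11, limma adjusted p = 7.64e-24). SNZ2 averaged 2.15 ± 0.30 in YPS2079 and 0.54 ± 0.63 in the other strains, a difference of 1.60 (SE 0.07, limma adjusted p = 7.29e-38). Of the other strains YPS2066 alone was near, at 2.04 for SNZ3 and 2.06 for SNZ2, and the remaining 7 lay at 0.55 or below for both.

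SNZ1, the third family member, was lower. It averaged -1.28 ± 0.44 in YPS2079 and 0.21 ± 0.71 in the other strains, a difference of -1.41 (SE 0.21, limma adjusted p = 2.99e-07). YPS2079 lay below all 8 strains at 11 of the 12 times, and YPS2066 had 0.02. Of the 28 vitamin B6 and thiamine genes 2 were higher (0.0972% of all genes) and 1 lower (0.583%) by at least 1. Their median difference was -0.03, beside -0.01 for all genes.

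IRC7, a cysteine beta-lyase gene, averaged 1.06 in YPS2079 and -0.30 in the other strains (difference 1.41, SE 0.11, limma adjusted p = 7.88e-20). YPS2066 was higher still, at 1.65, and the other 7 strains were negative. YJL213W averaged 2.20 in YPS2079 and 1.02 in the other strains, with YPS2066 at 2.12. TIR3 averaged 1.24 ± 0.70 in YPS2079 and 0.19 in the other strains (difference 1.04), with YPS2066 at 1.42. TIR3 kept its call when 4 of the 8 strains were left out in turn and lost it without each of the other 4.

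LSM7, a subunit of the Lsm ring that acts in mRNA decay and splicing, differed most from the spread of the other strains. It was -0.29 at the lowest of the 12 times, 1.21 at the median and 2.21 at the highest in YPS2079, and lay above all 8 strains at 11 of them. It averaged 1.10 ± 0.73 in YPS2079 and -0.17 ± 0.08 in the other strains, whose means lay between -0.24 and -0.02. The difference was 1.08 (SE 0.10, limma adjusted p = 6.05e-16, and 0.00263 against the spread between strains). LSM7 also followed the sets: its median was 1.56 over the 9 samples of set A and 0.02 over the 9 of set B. The fitted difference between the sets was 1.13 (limma adjusted p = 7.98e-12). The level comparison and the test against the spread between strains used the 12 shared times only, 8 of set A and 4 of set B. At those times the level difference was 1.48 in set A and 0.83 in set B. The difference over all 12 fell below 1 without the sample at 0 or 251 min. The level of LSM7 in YPS2079 therefore leans on set A.

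**Figure D4:**
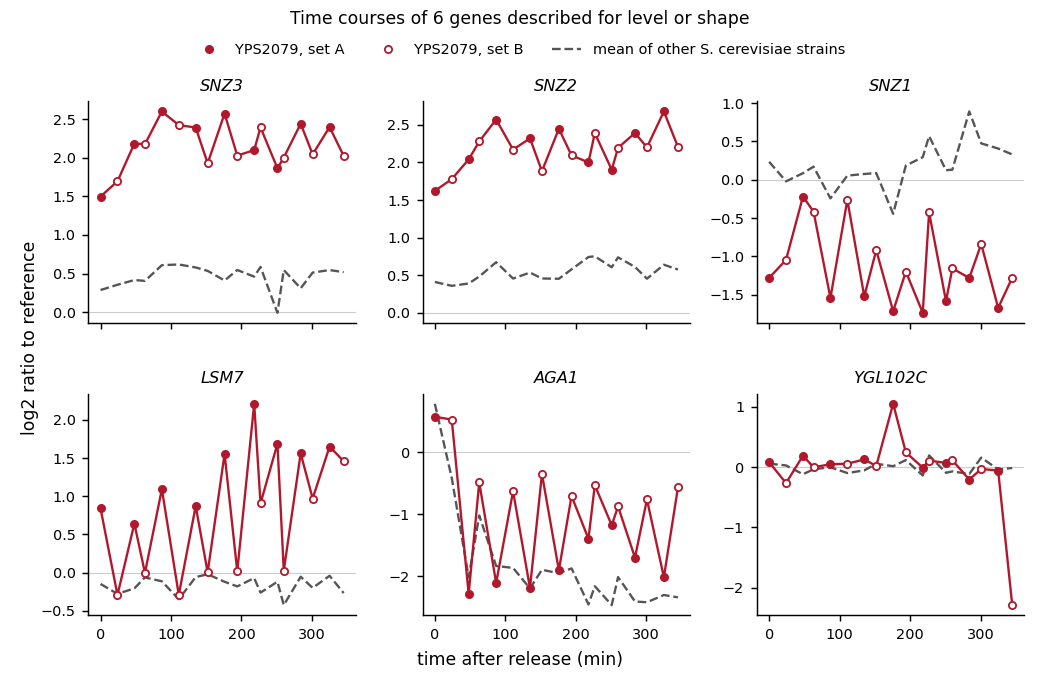
Log2 ratio against minutes after release for SNZ3, SNZ2, SNZ1, LSM7, AGA1 and YGL102C. Red points are YPS2079 samples, filled for set A and open for set B, and the dashed line is the mean of the remaining S. cerevisiae strains. SNZ3 stays at 1.50 or above, and AGA1 alternates between the sets from 48 min on.

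Most of the lower genes belong to the Y' element, a repeat next to telomeres that encodes a helicase-like protein. Of 24 measured Y' frames all 24 were lower in YPS2079 at any size (6.69% of all genes). By at least 1, 19 were lower (0.583% of all genes), and the median difference of the list was -1.78. They share sequence, and are not independent measurements. YRF1-1 was between -4.08 and -2.87 at the 12 times and averaged -3.70 in YPS2079 and -1.64 in the other strains (difference -2.04, SE 0.21, limma adjusted p = 1.24e-13). YBL113C averaged -3.77 ± 0.52 in YPS2079 and -1.47 ± 1.16 in the other strains. YPS2079 had the lowest level of 9 strains for 9 of the 24 frames, 37.5% against 10.0% of all genes. YPS2066 was close, at -3.54 for YRF1-1 and -3.71 for YBL113C. YPS2073 was less low for both, at -2.92 and -2.45. It was lower than YPS2079 for some other frames, such as YRF1-7 (-3.55 against -3.39) and YHL050C (-3.47 against -3.24). YPS183, the strain that gave the common RNA, had 0.08 for YRF1-1 and 0.05 for YBL113C, and without it the YRF1-1 difference was -1.79. The median difference was -2.07 in set A and -1.36 in set B.

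Outside the Y' list 17 genes were lower. BDS1, a sulfatase gene, was -0.91 at the lowest of the 12 times, -0.70 at the median and -0.42 at the highest in YPS2079. It averaged -0.68 ± 0.14 in YPS2079 and 0.67 ± 0.28 in the other strains, a difference of -1.32 (SE 0.13, limma adjusted p = 3.1e-14), and lay below all 8 strains at all 12 times. FIT3, a cell wall mannoprotein that helps retain iron siderophores, averaged -0.23 ± 0.13 in YPS2079 and 0.91 ± 0.51 in the other strains, a difference of -1.13 (SE 0.11, limma adjusted p = 3.52e-15). ARN2, a siderophore transporter gene, was lower by the same rule at -1.01. It averaged 0.04 in YPS2079, 0.22 in YPS2060 and 2.50 in YPS2066, the highest strain. ARN2 kept its call in 5 of the 8 fits that left out 1 other strain, and its difference was -0.80 without YPS2066. Its call was also lost without the sample at 0, 251 or 325 min. Of 27 iron uptake genes 11 were lower at any size (6.69% of all genes) and none higher (5.15%).

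HSP26, a small heat shock protein gene, averaged -2.75 in YPS2079 and -1.32 in the other strains, with YPS2066 at -2.23. TIP1, a cold-related mannoprotein gene, averaged -2.94 in YPS2079 and -1.63 in the other strains, with YPS2066 at -2.93. The asparaginase copies ASP3-1, ASP3-2 and ASP3-3, which can share probes, differed by -1.09, -1.01 and -1.03. YPS2055 (-3.21) and YPS2060 (-3.22) were as low as YPS2079 (-3.21) for ASP3-1. Without YPS183 the 3 differences were -0.73, -0.67 and -0.64, and that of TIP1 was -0.88 against -1.13 with it. COS3 and COS8, subtelomeric membrane protein genes, differed by -1.07 and -1.01, and by -0.91 and -0.84 without YPS183. CTR3, a copper transporter gene named after its values were seen, differed by -1.27, with -1.90 in set A and -0.43 in set B.

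**Figure D5:**
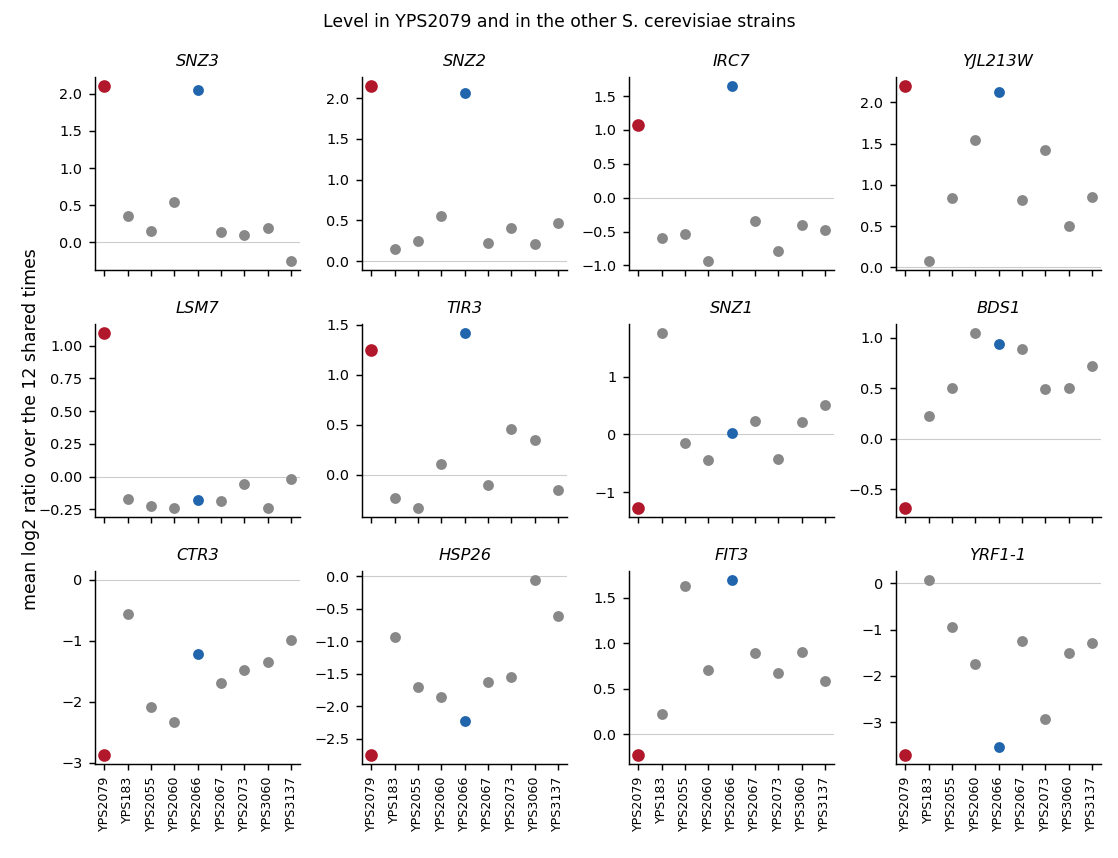
Mean log2 ratio over the 12 shared times for 12 genes in each S. cerevisiae strain, YPS2079 in red at the left, YPS2066 in blue and the other 7 in grey. YPS2066 lies next to YPS2079 for SNZ3, SNZ2, YJL213W and YRF1-1 but not for SNZ1, LSM7 or BDS1.

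YPS2066 had the strain mean nearest to that of YPS2079 for 5 of the 6 higher genes and 24 of the 36 lower genes, against 17.1% of all genes. The Y' frames share sequence and SNZ2 and SNZ3 may share signal, so these are not separate counts. For the 17 lower genes outside the Y' list YPS2066 was nearest for 7 and YPS2060 for 6. Over all genes YPS2060 was nearest most often, for 19.8%. By the gene order of the RefSeq annotation, 4 of the 6 higher genes and 26 of the 35 lower genes with a place lay within 15 genes of a chromosome end, against 7.5% of all genes. Of the 16 placed lower genes outside the Y' list 7 did so. Whether strain sequence differs from the probes was not tested.

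Some genes of mating were higher in YPS2079, by less than 1. Of 33 pheromone response genes 11 were higher at any size (5.15% of all genes) and 1, PRM1, was lower (6.69%), with a median difference of 0.16. The median difference was 0.06 in set A and 0.31 in set B. YPS2079 had the highest level of 9 strains for 11 of them (7.79% of all genes). GPA1, the G protein alpha subunit, averaged 0.07 in YPS2079 and between -0.68 and -0.37 in the other strains (difference 0.59, with 0.63 in set A and 0.59 in set B). STE2, the alpha factor receptor, averaged 0.16 in YPS2079 and between -1.15 and -0.07 in the other strains (difference 0.76, with 1.07 in set A and 0.56 in set B). AGA1 differed by 0.85, with 0.37 in set A and 1.38 in set B. Of the 6 a-cell genes measured 4 were higher. At 0 min the list means were not higher. The a-cell mean was -0.27 in YPS2079 and 0.11 in the other strains, and the pheromone response mean 0.35 and 0.41. The fitted a-cell mean had a range of 1.31 in YPS2079 and 0.99 to 3.73 in single other strains.

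At any size 5.15% of all genes were higher in YPS2079 and 6.69% lower, with a median difference of -0.01. Of 37 respiratory chain genes 9 were higher and none lower, with a median difference of 0.21, which was 0.25 in set A and 0.05 in set B. Of 73 ribosome biogenesis genes 10 were higher and none lower, with a median of 0.14, which was 0.16 in set A and 0.14 in set B. Of 19 hexose genes 5 were lower, HXT1, HXT3, HXT4, HXT6 and HXT7, at -0.95 to -0.62, and 2 were higher, HXK1 (0.84), a hexokinase gene, and HXT17 (0.26), with a median of 0.00. Of 138 ribosomal protein genes 6 were lower and 3 higher, smaller shares than those of all genes. No member of these lists was called with a difference of at least 1.

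The third question was whether the shape of the YPS2079 curve differed from that of the other strains, apart from level. By limma 4 genes passed with a deviation of at least 1 (0.0648% of all genes), and 108 had an unadjusted p under 0.05 (1.75%). Each lost its call without the sample at its extreme, YOR169C also without 4 others and GRE1 without 1 other, at 227 min. YGL102C was -2.29 at 345 min and between -0.27 and 1.05 at the other times, and YEL067C was -1.46 at 345 min and between -0.17 and 0.36 otherwise. YOR169C was -2.20 at 152 min and between -0.25 and 0.33 otherwise. GRE1, a stress-induced hydrophilin gene, was 1.87 at 301 min and -1.01 at 227 min, and between -0.09 and 0.44 otherwise.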

How the data were processed

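The authors deposited 1 normalized log2-type ratio per gene and sample (log base not stated, taken as 2), in which replicate arrays and dye swaps were already combined. No source used here gives the method. The deposited series matrix held the same values for the 6161 genes both tables share. The deposited table has 7 columns that match no sample label, and these were not used. Names came from RefSeq for 5554 identifiers directly and 192 after adding a hyphen, and 426 kept the deposited identifier. One limma 3.58.1 model (R 4.3.3) was fitted over all samples with 7 spline terms per strain, with Benjamini-Hochberg adjustment over 6172 genes. Level was compared over the 12 shared times. Genes were named as the 20 called genes with the widest curves, the 15 highest and 15 lowest called in level, up to 10 called in shape, up to 4 members per list in order of p with their families, and cell cycle landmarks; other genes named were chosen after their values were seen. The strain, the members and the gene lists were chosen with earlier results of these data known. The fit was tested on simulated data with independent noise and effects added to YPS2079 alone. Those data held no difference between sets or among the other strains, so the test does not cover such differences. Alternatives were another spline, quantile scaling, array weights, a set term, 2007 prints, each sample left out and each strain left out.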

Additional observations from a re-analysis of the deposited data

Results flagged for a closer look

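The shape of the YPS2079 curve differed from that of the other strains by the limma test for 4 genes. The largest deviation was -1.89 for YGL102C at 345 min (limma adjusted p = 2.9e-05) and -1.33 for YEL067C at 345 min (limma adjusted p = 7.19e-06). It was -1.01 for YOR169C at 152 min and 1.06 for GRE1 at 301 min (limma adjusted p = 0.00661 for each). Each call was lost without the sample at its own extreme.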

How the results depend on the processing

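By limma, 32 genes varied with time in YPS2079, 96 with an offset for the sampling sets, 146 on 2007 prints alone, 75 with array numbers as weights, and 229 with YPS2079 alone and the offset. These settings kept 32, 32, 31 and 21 of the 32 genes. YPS2079 fitted alone without the offset called 40 genes and kept 6 of the 32, and quantile scaling called 25 and kept 20. Without each sample in turn the count ran from 12 (without 24 min) to 40 (without 194 min). Genes higher in level numbered 6, 23 within set A, 1 with 1 mean per strain and 318 with no size threshold. Genes lower in level numbered 36, 63 within set A, 17 within set B, 0 with 1 mean per strain (limma, 128 genes in either direction at an unadjusted p under 0.05) and 413 with no size threshold. Quantile scaling called 25 lower and kept 21 of the 36, and 2007 prints called 52 and kept 30. Genes differing in shape numbered 4, 10 with the set offset, 7 on 2007 prints and 2 with 5 spline terms, and from 1 (without 345 min) to 6 (without 63 min) with each sample left out. The shape deviation of YGL102C was -1.89, ran to -2.15 without 325 min and reversed to 0.29 without 345 min. The count for the difference between sampling sets within YPS2079 was 398 genes, and 970 with YPS2079 fitted alone, an alternative chosen after seeing the data, as were quantile scaling of the set and between-strain tests. The causes of these changes were not tested. Blocking on the shared time points in place of curves gave 9 higher genes, 6 of them among the 6, and 42 lower, 34 of them among the 36. The labels give no replicate numbers that pair samples in any other way. The limits are 1 culture per strain, 2 to 5 arrays per sample, and unknown scale and combination of the arrays.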
